A study of Homo sapiens with 6 samples.

Results

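Among the genes that the authors listed as changed by depletion of VPS35 in MKN28 cells, 51 of 426 carry the name of a noncoding RNA or a pseudogene. They were picked by name alone. The rule took clone-based names (AC, AL or AP with digits), LINC names, names ending in -AS and a digit or in -DT, names of pseudogenes of ribosomal protein genes, and the names LNCAROD and TPT1P12. By class these were 30 clone-named transcripts, 10 antisense or divergent transcripts, 7 LINC transcripts, 2 ribosomal protein pseudogenes, LNCAROD and TPT1P12. Every one was already in a table of changed genes, so that a difference between the groups is a condition of membership, and the tests below set its size against the spread between samples without being independent evidence of it.

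MKN28 is a human gastric cancer line, held by cell line registries to derive from the line MKN74. RNA was sequenced from 3 samples in which a short hairpin RNA targeted VPS35 (shVPS35) and from 3 with a control vector, all untreated otherwise as far as the labels say. The design text calls the 3 samples of a group biological replicates and does not say whether they were separate cultures or clones, so that the spread between them may be partly technical. The sources used here do not say how many hairpins were used or which promoter drives them. Values are deposited expression levels for which the file names no unit. The targeted gene stood at 12.9, 15.6 and 11.8 in the shVPS35 samples and at 64.4, 64.2 and 67.2 in the vector samples, a difference of -2.21 ± 0.09 in log2(value + 1) and limma's adjusted p at 7.8e-07 (± is the SE). The table holds changed genes only, so the cell type could not be checked by marker level. Of 13 epithelial markers it lists 3 (PSCA, GKN1 and GKN2), all of which fell, and of 10 markers of other cell types it lists 4, of which CD68 and CDH5 fell, DCN rose and LUM did not pass. Depth is unknown and the table carries no counts.

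Long noncoding RNAs are transcribed like messenger RNAs but are not translated. Antisense transcripts run across a coding gene on its other strand, and divergent transcripts start beside a coding gene and run away from it. Processed pseudogenes are copies of messenger RNAs that were reverse transcribed and inserted elsewhere in the genome, so that their sequence stays close to that of a parent gene. RPPH1 is the RNA subunit of ribonuclease P, the enzyme that removes the leader from transfer RNA precursors. It is made by RNA polymerase III from a compact promoter, known as H1, that lies between RPPH1 and PARP2 and is also used in vectors for hairpin RNA.

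RPPH1 lies whole inside AL355075.4, the member with the highest level. The authors' deposited table itself describes this identifier as ribonuclease P RNA component H1, whereas GENCODE 29 keeps AL355075.4 and RPPH1 as separate genes. The stretch shown runs on the minus strand from 30 bases before RPPH1 into it (GRCh38, chr14:20343138-20343437, from the GENCODE 29 transcript of AL355075.4), and capitals mark the first 270 of the 333 bases of RPPH1.
AL355075.4: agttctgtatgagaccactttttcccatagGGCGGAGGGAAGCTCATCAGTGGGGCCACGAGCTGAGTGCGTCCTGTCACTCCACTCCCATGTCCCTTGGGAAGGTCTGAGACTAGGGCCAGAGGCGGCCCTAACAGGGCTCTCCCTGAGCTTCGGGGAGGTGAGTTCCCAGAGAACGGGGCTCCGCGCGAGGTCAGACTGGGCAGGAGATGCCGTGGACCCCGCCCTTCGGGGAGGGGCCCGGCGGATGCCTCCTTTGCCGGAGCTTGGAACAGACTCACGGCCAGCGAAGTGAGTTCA

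Pseudogenes of ribosomal protein genes differ from their parents at few bases, which the next stretches show. Each pair covers 90 coding bases aligned without a gap, and capitals mark the bases that differ. AC016739.1 comes from chr2:176201163-176201252 on the minus strand, RPL12P14 from chr1:15792865-15792954 on the plus strand and RPL13AP20 from chr12:12875499-12875588 on the plus strand of GRCh38. Parent sequences are those of the GENCODE 29 transcripts.
AC016739.1: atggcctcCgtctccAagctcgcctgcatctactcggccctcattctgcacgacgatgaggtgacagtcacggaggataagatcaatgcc
RPLP1: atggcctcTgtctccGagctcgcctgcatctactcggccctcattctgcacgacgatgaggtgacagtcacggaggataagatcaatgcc
RPL12P14: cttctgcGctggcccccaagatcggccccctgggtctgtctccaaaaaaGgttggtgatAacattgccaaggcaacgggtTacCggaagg
RPL12: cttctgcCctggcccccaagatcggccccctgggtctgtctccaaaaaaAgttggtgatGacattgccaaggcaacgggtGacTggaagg
RPL13AP20: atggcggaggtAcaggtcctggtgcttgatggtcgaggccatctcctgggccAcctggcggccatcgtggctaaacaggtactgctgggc
RPL13A: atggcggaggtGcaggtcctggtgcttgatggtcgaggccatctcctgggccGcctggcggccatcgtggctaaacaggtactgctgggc

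As a group the members moved both ways. Of the members, 22 were higher and 29 lower in shVPS35 cells in the authors' deposited table, so that 43.1% were higher, beside 44.8% of the 375 other listed genes. The authors had tested 16063 genes, as recovered from their p-values, and listed 2.65% of them. On the log2(value + 1) scale, a scale that understates the change of low genes, limma called 22 members higher and 28 lower at an adjusted p below 0.05, and AC008894.2 did not pass. Of all 426 listed genes, 95.8% were called, 43.0% as higher and 52.8% as lower, and the members' counts lie close to these shares. The groups did not overlap for 21 members that were higher and 25 that were lower, beside 93.4% of all listed genes in either direction (42.5% higher, 50.9% lower). The 5 members whose groups overlapped were AL713999.1, LINC01588, AC005332.5, AC135178.3 and AC008894.2. The median log2 difference was -0.46 over the members and -0.34 over the other listed genes. Scaling on the other listed genes, themselves selected as changed, moved the members' median to -0.24.

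**Figure D1:**
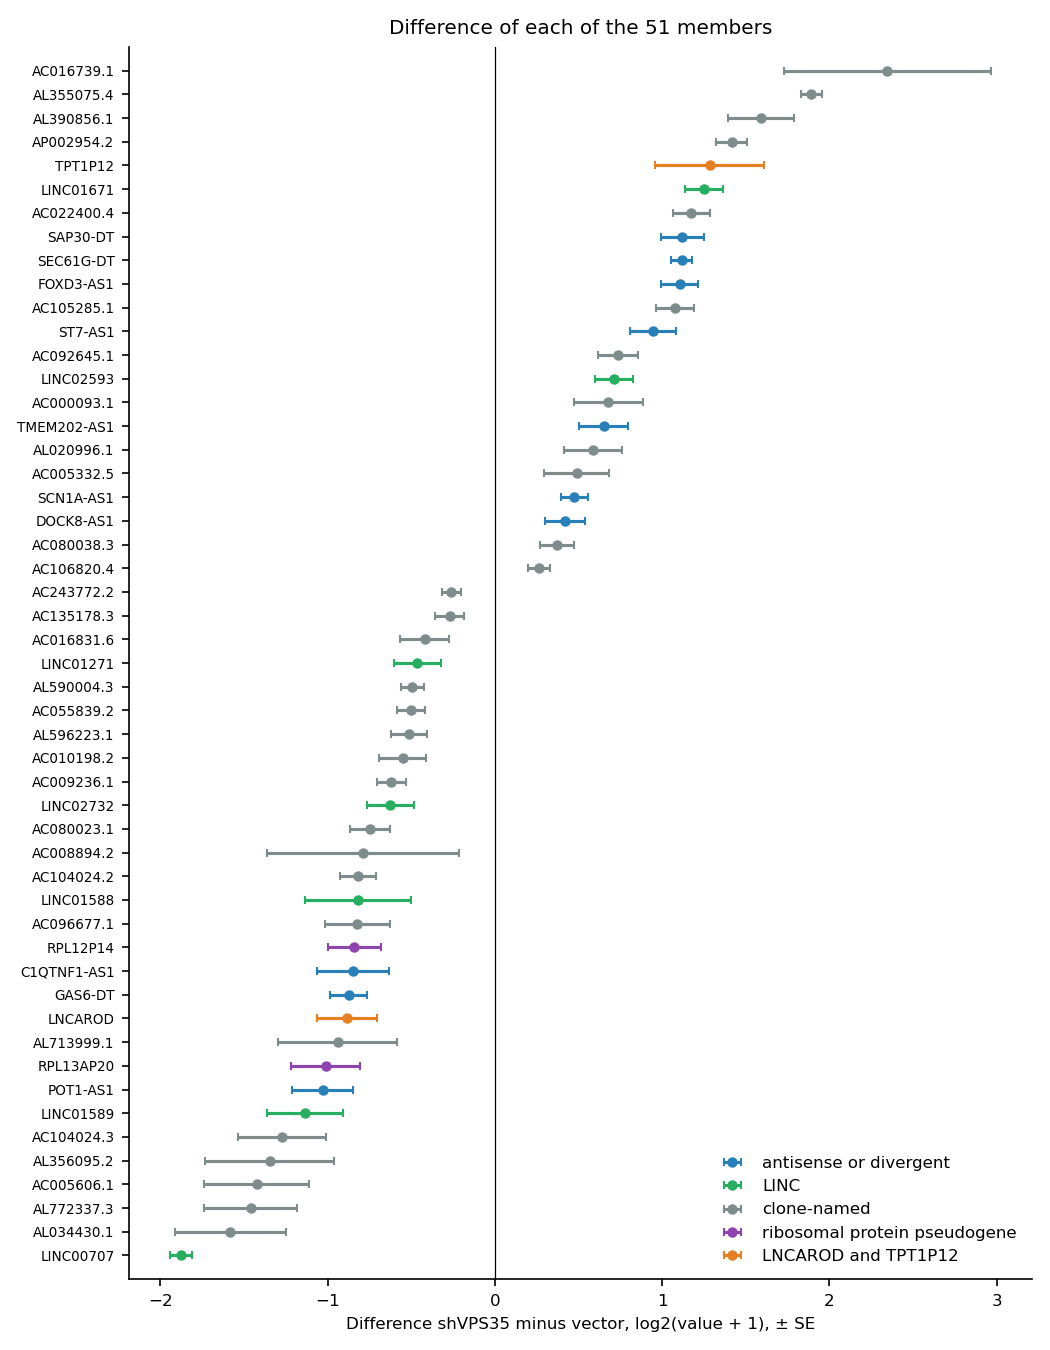
Difference between shVPS35 and vector samples for each of the 51 members on the log2(value + 1) scale (x axis), with the standard error as bars and the class as colour. Members run from AC016739.1 at 2.35 to LINC00707 at -1.88, and 29 of them lie below 0.

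By direction the classes differed in count, without a test. Of the 10 transcripts with an antisense or divergent name, 7 rose and 3 fell, with a median log2 difference of 0.56. This lean depends on the naming. GENCODE gives the antisense gene type to 16 members, of which 8 were higher and 8 lower in the authors' deposited table. Of the 7 LINC transcripts 2 rose and 5 fell (median -0.62), and of the 30 clone-named ones 12 rose, 17 fell and 1 did not pass (median -0.46). The level was low for most members. Its mean over the 6 samples was below 1 for 18 (35.3%), from 1 to under 10 for 27 and 10 or more for 6, beside 34.1% below 1 among the other listed genes. A value of 0 in at least 1 sample occurred in 7 members (13.7%) and in 7.47% of the other genes. Replicate spread was compared among genes with a mean of at least 1, as the SD in percent of the mean. Its median was 18.8% in shVPS35 and 23.1% in vector samples for 33 members, and 12.6% in shVPS35 and 10.8% in vector samples for 247 other genes, without a test. The sets were not matched for level, with 6 of the 33 members and 68 of the 247 other genes at 10 or more.

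**Figure D2:**
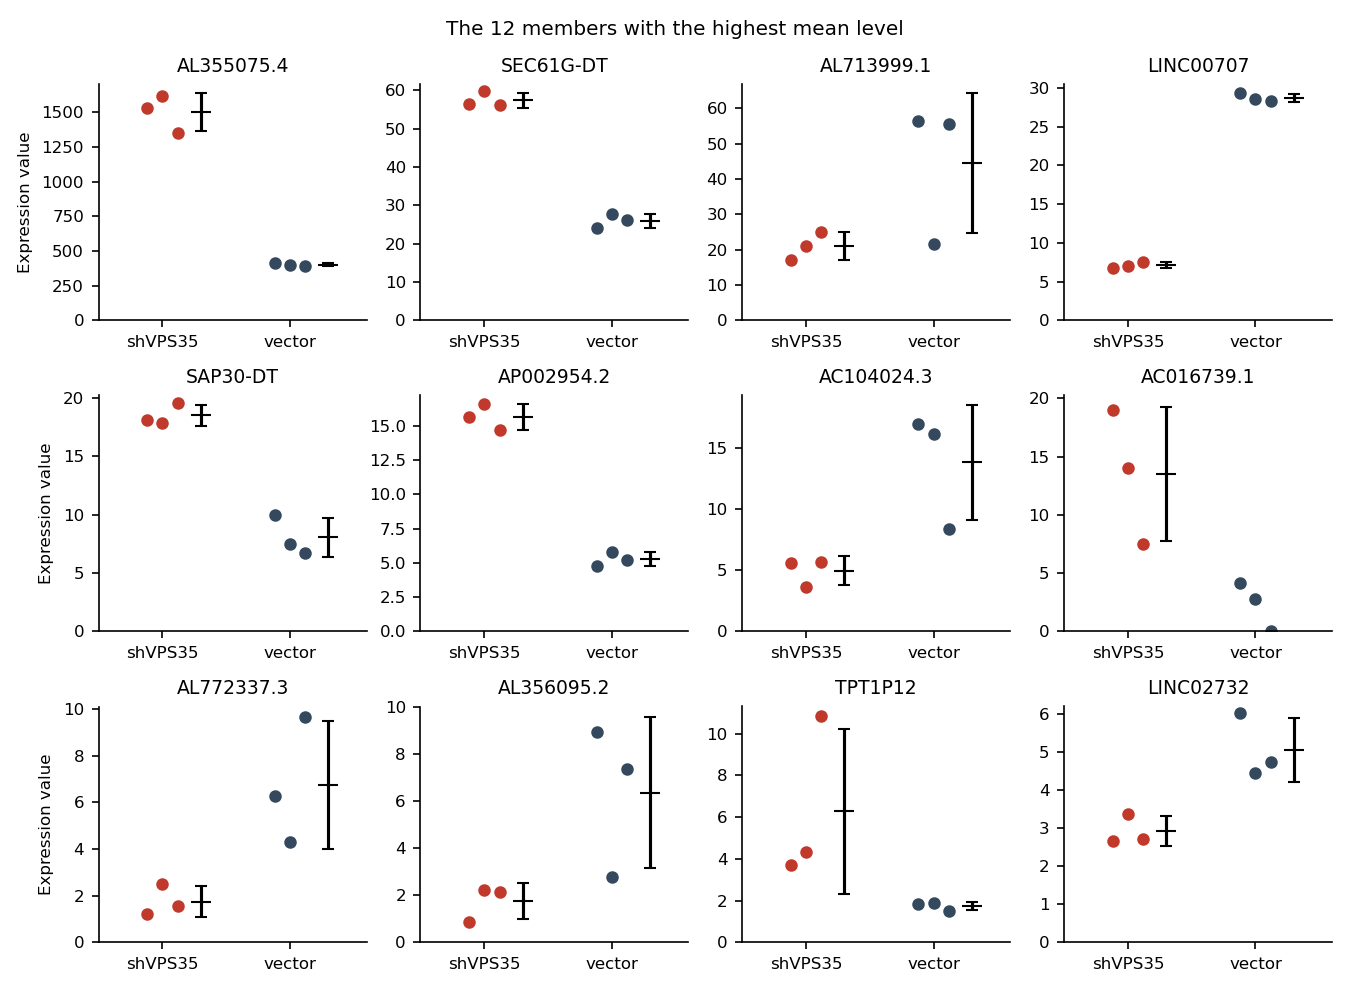
Expression value (y axis, unit not named in the table, each panel with its own scale from 0) of the 12 members with the highest mean level, in the 3 shVPS35 and 3 vector samples (points), with mean and SD beside them except for a group that holds a value of 0. AL355075.4, SEC61G-DT, LINC00707 and AP002954.2 show tight groups far apart, while vector values of AL713999.1 reach from 21.7 to 56.4.

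AL355075.4 (ENSG00000259001; chromosome 14, 20343048 to 20343685, minus strand) dominated the members' summed level. Its values were 1534, 1618 and 1348 in shVPS35 samples and 414, 400.2 and 393 in vector samples. All 3 shVPS35 samples lay far above the 3 vector samples, and the ratio of the means was 3.73 (log2 difference 1.89 ± 0.06, SE, limma adjusted p = 3.1e-07). This transcript made up 87.4% to 89.4% of the summed level of the members in shVPS35 samples and 65.1% to 70.2% in vector samples. Without it the other 50 members summed to 186 to 194 in shVPS35 samples and to 170 to 213 in vector samples, ranges that overlap. The members' share of the summed level of all listed genes was 32.8% to 36.2% in shVPS35 samples and 11.2% to 12.2% in vector samples. RPPH1 covers 52.2% of the 638 bases of the annotated AL355075.4 transcript, and 48.2% of the transcript's 50-base words recur in RPPH1 on the same strand. PARP2, a DNA repair enzyme gene on the opposite strand whose start lies 103 bases inside AL355075.4, was not listed. None of 16 genes on a list of catalytic or polymerase III RNAs and protein subunits of ribonuclease P was listed under its own symbol, RPPH1 included. The values of AL355075.4 may therefore hold reads of RPPH1, of the longer transcript or of both, which cannot be told apart here.

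**Figure D3:**
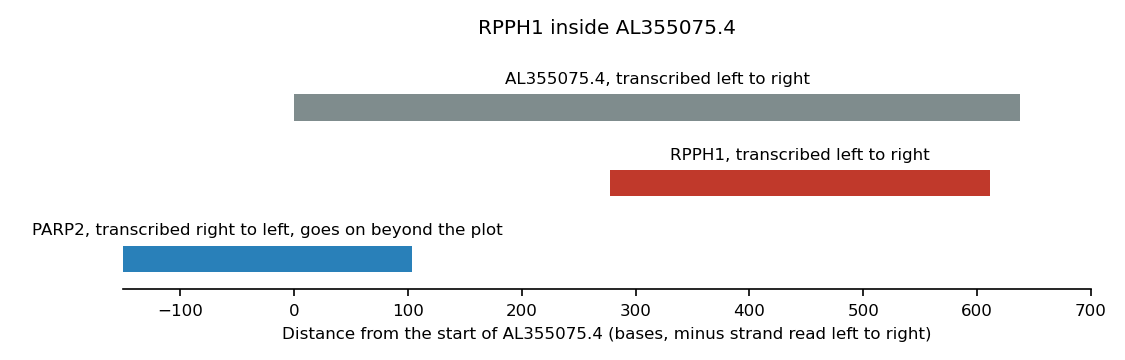
Map of AL355075.4, RPPH1 and the start of PARP2 by distance in bases from the start of AL355075.4, with the minus strand read from left to right. RPPH1 begins 278 bases into AL355075.4 and ends within it, and PARP2 runs the other way.

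Intergenic LINC transcripts lie apart from coding genes and are spliced and polyadenylated in most cases. LINC00707 (ENSG00000238266; chromosome 10, 6779549 to 6879450, plus strand) had the largest fall of any member on the log2(value + 1) scale. It stood at 6.71, 7.07 and 7.49 in shVPS35 samples and at 29.3, 28.5 and 28.3 in vector samples, so that the shVPS35 mean was 0.247 times the vector mean (-1.88 ± 0.06, SE, limma adjusted p = 3.1e-07). Its replicates lay close together in both groups, and its start is 199248 bases from the nearest start of a coding gene, PRKCQ. LINC01589 had 1.08, 2.03 and 2.54 in shVPS35 and 4.88, 4.29 and 6.63 in vector samples (-1.14 ± 0.23). LINC02732 had 2.66, 3.36 and 2.72 in shVPS35 and 6.01, 4.43 and 4.72 in vector samples (-0.62 ± 0.14, limma adjusted p = 0.0034). In both the groups were apart. The call of LINC02732 ended under scaling on the other listed genes (limma adjusted p = 0.141).

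LINC01671 (chromosome 21, 42599280 to 42615058, minus strand) was the LINC transcript that rose most. Its values were 3.74, 3.11 and 2.87 in shVPS35 samples and 0.79, 0.74 and 0.80 in vector samples, a ratio of means of 4.17 (1.25 ± 0.11, SE, limma adjusted p = 3.3e-05). The vector values hardly varied, and every shVPS35 value was more than 2 units above them. LINC01588 fell in the test (-0.82 ± 0.32, limma adjusted p = 0.0364), with 2.09, 1.37 and 1.82 in shVPS35 and 1.93, 4.21 and 6.43 in vector samples. Its groups overlap, and vector sample 1 lies at the shVPS35 level. When 1 sample was left out, the limma adjusted p of LINC01588 was above 0.05 for every sample but vector sample 1, and it reached 0.1895 under scaling on the other listed genes. Without vector sample 3 the log2 difference was -0.51. LINC01271 had 0.43, 0.83 and 0.50 in shVPS35 and 1.04, 1.5 and 1.02 in vector samples (-0.46 ± 0.14, limma adjusted p = 0.0142). LINC01271 overlaps LINC01270 on the opposite strand over 56.4% of its 50-base words, and its call ended without vector sample 2 and with scaling on the other listed genes.

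LNCAROD (ENSG00000231131; chromosome 10, 52450874 to 52755409, minus strand), an RNA described as an activating regulator of the Wnt antagonist gene DKK1, fell. It had 1.13, 1.47 and 1.62 in shVPS35 samples and 2.69, 4.68 and 3.14 in vector samples, a ratio of means of 0.402 (-0.88 ± 0.18, SE, limma adjusted p = 0.0024). All shVPS35 values were below all vector values. DKK1 was not listed. No 50-base word of LNCAROD recurs in another annotated transcript.

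Of the transcripts named for a coding gene beside them, SEC61G-DT (ENSG00000234707; chromosome 7, 54759425 to 54804928, plus strand) had the highest level. SEC61G encodes a subunit of the channel that moves proteins into the endoplasmic reticulum. The divergent transcript stood at 56.4, 59.8 and 56.1 in shVPS35 and at 24.0, 27.8 and 26.2 in vector samples, a ratio of means of 2.21 (1.12 ± 0.06, SE, limma adjusted p = 2.9e-06). SAP30-DT, beside the gene of a subunit of the SIN3 histone deacetylase complex, had 18.1, 17.9 and 19.6 in shVPS35 and 9.95, 7.53 and 6.72 in vector samples (1.12 ± 0.13, limma adjusted p = 1.2e-04). Both doubled or more, with no overlap between groups. Neither SEC61G nor SAP30 was listed, which does not show that they were unchanged.

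FOXD3-AS1 rose by the largest ratio among antisense transcripts without a value of 0. FOXD3 is a transcription factor gene of the neural crest and of pluripotent cells. FOXD3-AS1 had 1.51, 1.92 and 2.09 in shVPS35 and 0.28, 0.31 and 0.36 in vector samples, a ratio of means of 5.81 (1.10 ± 0.11, SE, limma adjusted p = 6.5e-05). ST7-AS1 had 3.25, 2.19 and 2.83 in shVPS35 and 1.00, 1.07 and 0.76 in vector samples (0.94 ± 0.14). TMEM202-AS1 had 1.70, 1.76 and 1.83 in shVPS35 and 1.01, 0.42 and 0.91 in vector samples (0.65 ± 0.15). The groups were apart for each of the 3, and FOXD3, ST7 and TMEM202 were not listed. ST7-AS1 shares 38.3% of its 50-base words with other genes on the opposite strand only, chiefly ST7, and TMEM202-AS1 shares 24.8%, chiefly with ARIH1.

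GAS6-DT, POT1-AS1 and C1QTNF1-AS1 fell. GAS6-DT starts 101 bases from GAS6, the gene of a ligand of TAM family receptor kinases, and runs the other way. It had 0.94, 0.58 and 0.76 in shVPS35 and 2.31, 2.19 and 2.15 in vector samples (-0.87 ± 0.11, SE, limma adjusted p = 1.9e-04). POT1-AS1 starts 110 bases from POT1, which encodes a telomere-binding protein, and had 0.53, 0.72 and 0.95 in shVPS35 and 3.50, 1.85 and 2.4 in vector samples (-1.03 ± 0.18). C1QTNF1-AS1 had 1.22, 1.32 and 0.59 in shVPS35 and 1.74, 3.14 and 3.21 in vector samples (-0.85 ± 0.22). Each of the 3 was lower in every shVPS35 sample than in any vector sample, by a narrow gap for C1QTNF1-AS1, and GAS6, POT1 and C1QTNF1 were not listed.

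Position relative to coding genes was found for the 47 members found in GENCODE 29 by identifier. Of these, 26 overlapped a coding gene and 21 did not. Of the 26, 4 overlapped a coding gene that was itself listed, where 2.65% of all genes the authors tested were listed. These shares are not alike, since the 2.65% counts single genes and a member overlapped up to 3 coding genes. All 4 also share exon bases with the listed gene, from 8.60% to 71.9% of their own. A start within 1000 bases of the start of a coding gene on the opposite strand was found for 9 members, 5 higher and 4 lower, and the coding gene was listed for 1 of the 9, AC080023.1 beside ADM. Overlapping a listed gene, or starting within 10 kb of one, applied to 7 members, and in all 7 pairs the member and its neighbour moved in the same direction. No test was made of this count, and none was made for other listed genes that lie beside each other. For AC000093.1, 71.9% of its exon bases lie in exons of its neighbour SEPTIN5 on the same strand. The nearest coding gene start was also that of a listed gene for RPL13AP20 (GPRC5A, 15283 bases) and TPT1P12 (A2M, 40143 bases). Both lie outside the 10 kb limit, and their directions were not set against those of these genes.

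**Figure D4:**
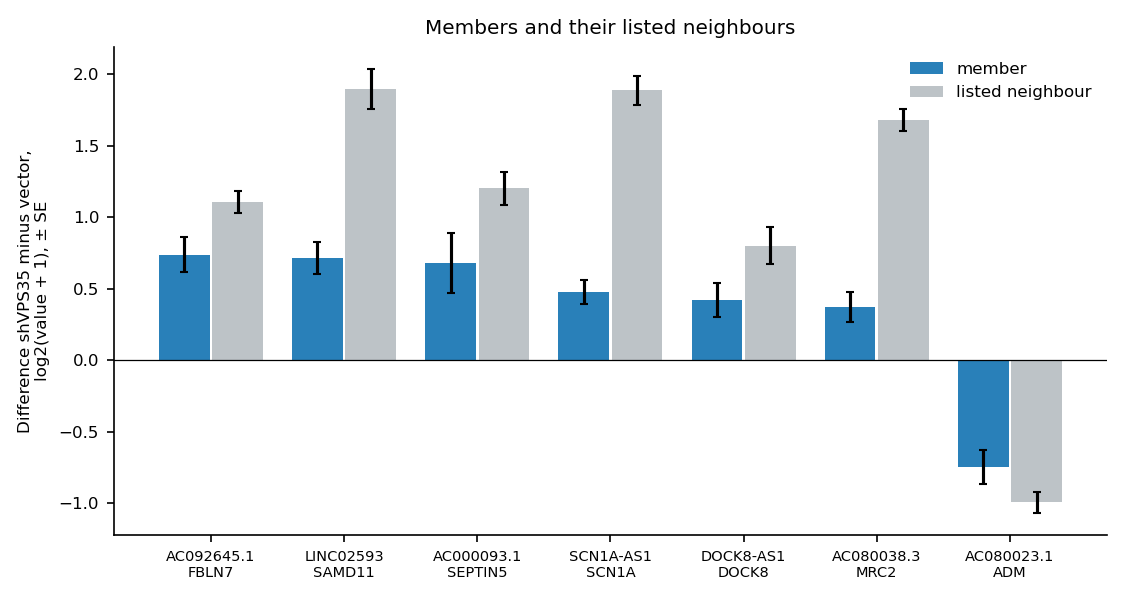
Difference between shVPS35 and vector samples on the log2(value + 1) scale (y axis, bars with SE) for 7 members and the listed gene beside or across each. The 6 pairs on the left were higher and the pair of AC080023.1 and ADM lower in shVPS35 samples. Which gene of a pair has the larger difference depends on the pseudocount, since a pseudocount of 1 shrinks the low members more.

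AC080023.1, which later annotation names ADM-DT, starts 976 bases from ADM on the opposite strand. ADM encodes adrenomedullin, a vasodilator peptide. AC080023.1 had 0.92, 1.22 and 0.96 in shVPS35 and 2.47, 2.06 and 2.72 in vector samples (-0.75 ± 0.12, SE, limma adjusted p = 7.1e-04). ADM had 29.8, 34.0 and 28.6 in shVPS35 and 58.5, 64.6 and 63.6 in vector samples (-0.99 ± 0.07). The exons of the pair share no base, and no 50-base word of AC080023.1 recurs elsewhere.

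LINC02593 lies 2912 bases upstream of SAMD11, a gene expressed in photoreceptors among other cells, and runs away from it. LINC02593 had 1.70, 1.98 and 2.01 in shVPS35 and 0.95, 0.62 and 0.74 in vector samples (0.71 ± 0.11, SE, limma adjusted p = 6.5e-04). SAMD11 had 17.5, 23.7 and 24.2 in shVPS35 and 5.47, 4.41 and 5.38 in vector samples (1.90 ± 0.14). Neither transcript's groups overlap, and their exons share no base. The distance of 2912 bases is counted from the GENCODE start of LINC02593, at 921016. RefSeq places a start elsewhere, inside the GENCODE gene (916865 to 921016) and farther from SAMD11. Because this transcript moved with its neighbour, the window at the RefSeq start is shown with CG in capitals. It runs from 250 bases before that start to 50 after it (GRCh38.p14, chr1:919643-919942, minus strand) and does not cover the GENCODE start.
LINC02593: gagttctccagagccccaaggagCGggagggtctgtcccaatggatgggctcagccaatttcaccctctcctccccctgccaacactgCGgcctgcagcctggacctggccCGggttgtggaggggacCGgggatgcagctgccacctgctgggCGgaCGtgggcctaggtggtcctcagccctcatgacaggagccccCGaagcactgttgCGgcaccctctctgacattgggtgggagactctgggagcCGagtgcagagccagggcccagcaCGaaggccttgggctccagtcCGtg

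That window holds 11 CG dinucleotides, 0.33 times the number its C and G content would give. Windows were found in RefSeq for 15 members by symbol, 18 windows in all. A CG ratio of 0.6 or more occurred in 7 of the 18 (38.9%), beside 48.9% of all 35116 windows in the table, and the median ratio was 0.31 for the members and 0.58 for all. SAP30-DT, GAS6-DT, POT1-AS1, FOXD3-AS1, SEC61G-DT and TMEM202-AS1 held these 7 windows, SAP30-DT with a pair of them. The letters TATAAA, searched on both strands, were in 2 member windows (11.1%) and in 11.5% of all. These shares describe the windows and name no factor.

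AC092645.1 starts 148 bases beyond the end of FBLN7, a matrix protein gene, on the same strand. AC092645.1 had 1.69, 1.72 and 1.93 in shVPS35 and 0.66, 0.90 and 0.47 in vector samples (0.74 ± 0.12, SE, limma adjusted p = 8.5e-04). FBLN7 had 13.7, 12.8 and 12.8 in shVPS35 and 5.29, 5.70 and 5.70 in vector samples (1.10 ± 0.08). Both were well apart between groups. AC092645.1 is a candidate gene model that GENCODE marks as yet to be tested by experiment, and its place after FBLN7 means that reads from an extended FBLN7 transcript could not be told from its own in these values.

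SCN1A-AS1, DOCK8-AS1 and AC080038.3 lie across a listed gene on its opposite strand. SCN1A encodes a neuronal sodium channel, DOCK8 an exchange factor for CDC42 in immune cells, and MRC2, which AC080038.3 overlaps, an endocytic collagen receptor. SCN1A-AS1 had 0.28, 0.43 and 0.57 in shVPS35 and 0.02, 0 and 0.05 in vector samples (0.47 ± 0.08, SE, limma adjusted p = 0.0010), beside 3.31, 3.74 and 3.40 in shVPS35 and 0.14, 0.20 and 0.30 in vector samples for SCN1A (1.89 ± 0.10). Both were near 0 in the vector samples and higher in all shVPS35 samples. DOCK8-AS1 had 0.87, 0.47 and 0.86 in shVPS35 and 0.33, 0.31 and 0.23 in vector samples (0.42 ± 0.12), beside 8.23, 10.1 and 7.13 in shVPS35 and 4.10, 4.47 and 4.63 in vector samples for DOCK8 (0.80 ± 0.13). AC080038.3 had 0.34, 0.62 and 0.22 in shVPS35 and 0.10, 0.07 and 0.04 in vector samples (0.37 ± 0.10), and MRC2 had 32.2, 34.9 and 34.0 in shVPS35 and 10.6, 8.84 and 10.2 in vector samples (1.68 ± 0.08). Groups did not overlap for any of these 6 genes. Exons of the coding gene cover 8.60% of the exon bases of SCN1A-AS1, 13.7% of those of DOCK8-AS1 and 34.6% of those of AC080038.3. The sources used here do not say whether the libraries kept strand, and without strand reads of a pair from these bases cannot be told apart.

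AC000093.1 overlaps SEPTIN5 and GP1BB on their own strand and is annotated as protein coding, a readthrough of the pair. SEPTIN5 is a septin gene of neurons and platelets. AC000093.1 had 0.20, 1.12 and 1.03 in shVPS35 and 0.04, 0.09 and 0.11 in vector samples (0.68 ± 0.21, SE, limma adjusted p = 0.0144), and SEPTIN5 had 8.51, 7.57 and 7.07 in shVPS35 and 2.84, 3.08 and 2.46 in vector samples (1.20 ± 0.11). The lowest shVPS35 value of AC000093.1 was less than 2 times the highest vector value, whereas SEPTIN5 was far apart. Of the 50-base words of AC000093.1, 81.6% also occur in SEPTIN5 or GP1BB.

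Annotation went against the noncoding label for 5 members, which GENCODE 29 calls protein coding. They are AC000093.1, DOCK8-AS1, AL034430.1, AL713999.1 and AC135178.3, and the authors' deposited table describes the last 3 as proteins too. AL713999.1 overlaps KRTCAP2, TRIM46 and MUC1 and shares 93.3% of its 50-base words with other genes on the same strand, chiefly KRTCAP2, a subunit gene of oligosaccharyltransferase. It had 17.1, 21.1 and 25.0 in shVPS35 and 56.4, 21.7 and 55.6 in vector samples (-0.94 ± 0.36, SE, limma adjusted p = 0.0362). Vector sample 2 lies within the shVPS35 range, and the call ended on leaving out any 1 sample other than vector sample 2 and under scaling on the other listed genes (limma adjusted p up to 0.250). AL034430.1 had 0.20, 0 and 0 in shVPS35 and 1.35, 1.40 and 4.70 in vector samples (-1.58 ± 0.33, limma adjusted p = 0.0026). All of its 50-base words recur in other genes on the same strand, chiefly MKKS, a chaperonin-like gene. A later gene table gives its identifier the symbol MKKS, and no other row of the list carries that symbol. AC135178.3 had 0.13, 0.03 and 0 in shVPS35 and 0.31, 0.13 and 0.38 in vector samples (-0.27 ± 0.09, limma adjusted p = 0.0184), with a tie between the groups at 0.13. Its call ended without shVPS35 sample 2 or 3 or vector sample 3 (limma adjusted p up to 0.0587), and 97.1% of its words recur, chiefly in KRBA2 and RPL26. Without the 5 coding members limma called 20 members higher and 25 lower.

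**Figure D5:**
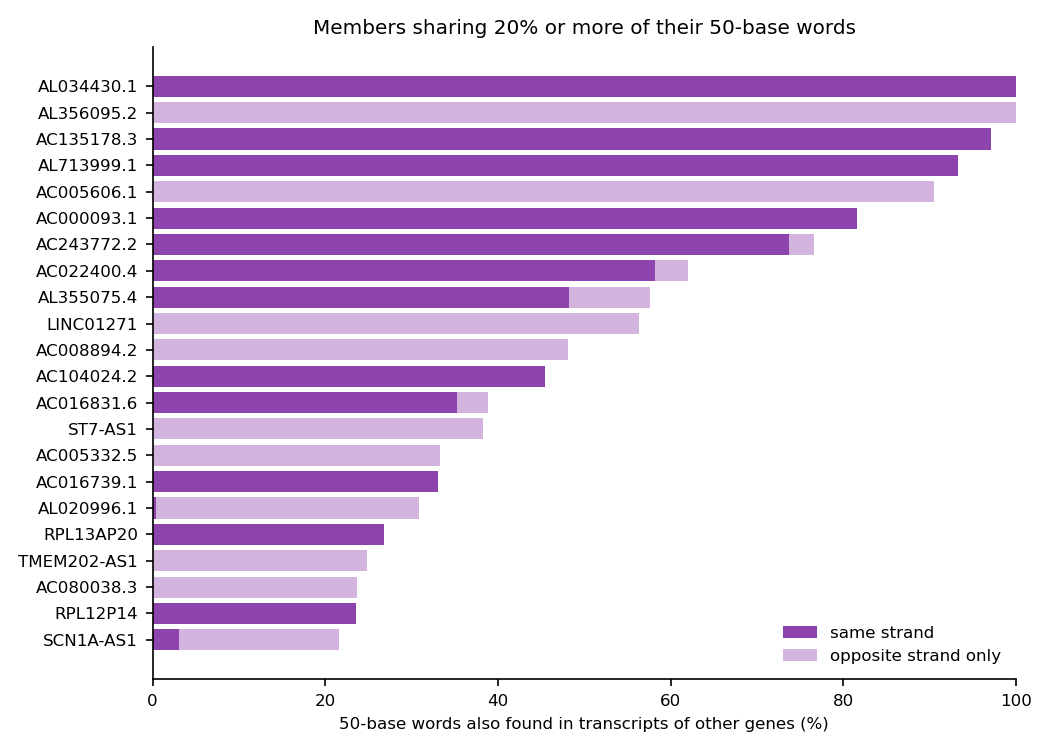
Share of the 50-base words of a member's annotated transcripts that also occur in transcripts of other genes (x axis, percent), split by strand, for the 22 members at 20% or more. The protein-coding member AL034430.1 reaches 100% on the same strand, and AL356095.2 and AC005606.1 share 100% and 90.5% on the opposite strand only.

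Each pseudogene was read against its parent. AC016739.1 is identical to RPLP1, a ribosomal stalk protein gene, at 338 of 345 aligned bases (98.0%), with an unbroken run of 103 identical bases. It had 19.02, 14.0 and 7.54 in shVPS35 and 4.17, 2.77 and 0 in vector samples (2.35 ± 0.62, SE, limma adjusted p = 0.0085). The groups did not overlap, but the shVPS35 values span more than 2-fold and 1 vector sample is listed at 0. RPL13AP20 is identical to RPL13A at 96.7% of 609 aligned bases and had 0.36, 0.38 and 0.19 in shVPS35 and 2.65, 1.44 and 1.06 in vector samples (-1.01 ± 0.21, limma adjusted p = 0.0024). RPL12P14 is identical to RPL12 at 94.1% of 494 aligned columns and had 0.31, 0.24 and 0.49 in shVPS35 and 1.98, 1.24 and 1.08 in vector samples (-0.84 ± 0.16, limma adjusted p = 0.0016). RPL13AP20 and RPL12P14 thus fell, and AC016739.1 rose. The parent genes RPLP1, RPL13A and RPL12 were not listed. The share of 50-base words found in other genes was 33.1% for AC016739.1, 26.8% for RPL13AP20 and 23.6% for RPL12P14, so their levels are uncertain where reads were split among copies.

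TPT1P12, a pseudogene of the gene of translationally controlled tumour protein, lies on chromosome 12 (9155881 to 9156372, minus strand) within PZP. It had 3.69, 4.34 and 10.8 in shVPS35 and 1.84, 1.88 and 1.5 in vector samples (1.29 ± 0.33, SE, limma adjusted p = 0.0066). Every shVPS35 value was above every vector value, and shVPS35 sample 3 stood at more than 2 times the other two. Without that sample the log2 difference was 0.87 (limma adjusted p = 0.0013). TPT1P12 is the most diverged of the 4 processed pseudogenes, with 77.7% identity to TPT1 and a longest identical run of 38 bases, and it shares no 50-base word with another transcript. AL772337.3 is a partial copy of CTSL, the cathepsin L gene, at 82.7% identity over the aligned part. It had 1.20, 2.50 and 1.55 in shVPS35 and 6.28, 4.28 and 9.67 in vector samples (-1.46 ± 0.28, limma adjusted p = 0.0017), also shares no such word, and its groups lay apart. CTSL was not listed.

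Clone-named transcripts are gene models without an assigned symbol at the time of the annotation used, and most have no known role. AP002954.2 (ENSG00000287238), absent from GENCODE 29, rose, with 15.6, 16.6 and 14.7 in shVPS35 and 4.78, 5.79 and 5.18 in vector samples (1.42 ± 0.09, SE, limma adjusted p = 6.1e-06). AL390856.1 had 1.92, 3.74 and 2.92 in shVPS35 and 0.50, 0.14 and 0.16 in vector samples (1.59 ± 0.20). AC022400.4 had 2.17, 1.71 and 2.22 in shVPS35 and 0.35, 0.39 and 0.28 in vector samples (1.18 ± 0.11), and 62.1% of its 50-base words recur in other genes. The groups of all 3 were far apart, and AL390856.1 shares no 50-base word with another gene. AC105285.1, later named GALNT7-DT, had 4.69, 3.95 and 3.75 in shVPS35 and 1.52, 1.35 and 1.41 in vector samples (1.08 ± 0.12). GALNT7, a glycosyltransferase gene that starts mucin-type glycans on peptides already carrying sugar, was not listed.

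AL020996.1, AC106820.4 and AC005332.5 rose by smaller differences on the log2(value + 1) scale, with ratios of means of 2.23, 2.53 and 2.69. AL020996.1 had 2.06, 1.23 and 1.32 in shVPS35 and 1.02, 0.46 and 0.59 in vector samples (0.59 ± 0.17, SE, limma adjusted p = 0.0126). AC106820.4, within an intron of TBC1D24, had 0.34, 0.43 and 0.37 in shVPS35 and 0.12, 0.13 and 0.20 in vector samples (0.26 ± 0.06). For both, every shVPS35 value was above every vector value. AC005332.5 had 1.00, 1.25 and 0.41 in shVPS35 and 0.57, 0.16 and 0.26 in vector samples (0.49 ± 0.20, limma adjusted p = 0.0419), and its groups overlap. Its call ended on leaving out any shVPS35 sample but the third, or vector sample 2 or 3 (limma adjusted p up to 0.133 over all alternatives).

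AC104024.2 and AC104024.3, named for the same genomic clone, both fell. AC104024.3 had 5.63, 3.64 and 5.66 in shVPS35 and 16.9, 16.2 and 8.41 in vector samples (-1.27 ± 0.27, SE, limma adjusted p = 0.0026), and AC104024.2 had 0.65, 0.50 and 0.66 in shVPS35 and 2.05, 1.80 and 1.64 in vector samples (-0.82 ± 0.11, limma adjusted p = 2.2e-04). Groups were apart in both. AC104024.2 lies on chromosome 17 (17011914 to 17014990, minus strand), and 45.4% of its 50-base words recur in other genes on the same strand. The position of AC104024.3 was not used here, since its identifier is not in GENCODE 29.

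AL356095.2 and AC005606.1 also fell, and both lie across a coding gene. Like AC092645.1, AL356095.2 and AC080038.3 are candidate gene models that GENCODE marks as yet to be tested by experiment. AL356095.2 had 0.86, 2.24 and 2.15 in shVPS35 and 8.94, 2.76 and 7.37 in vector samples (-1.35 ± 0.38, SE, limma adjusted p = 0.0109), and all of its 50-base words lie in TMEM254 or RAB6C-AS1 on the opposite strand. AC005606.1 had 0, 0 and 0.96 in shVPS35 and 1.63, 3.68 and 2.08 in vector samples (-1.42 ± 0.31, limma adjusted p = 0.0034), and 90.5% of its words lie on the opposite strand, chiefly in ZNF598. Whether the libraries kept strand is not stated, and without strand reads from these words cannot be told from those of the other genes. Vector sample 2 came close to the shVPS35 values for AL356095.2 but was the highest for AC005606.1. AC096677.1, later named CSRP1-AS1, is listed at 0 in all 3 shVPS35 samples and had 0.50, 0.48 and 1.49 in vector samples (-0.82 ± 0.19, limma adjusted p = 0.0045). CSRP1, a LIM domain protein gene, was not listed.

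The other clone-named transcripts that fell had means below 1 in both groups, and the log2(value + 1) differences ran from -0.62 for AC009236.1 to -0.26 for AC243772.2. AC009236.1 had 0.17, 0 and 0 in shVPS35 and 0.54, 0.64 and 0.68 in vector samples. AL590004.3 had 0.13, 0.13 and 0.14 in shVPS35 and 0.53, 0.67 and 0.59 in vector samples, the tightest of them. AC010198.2 carries the identifier of LINC00941 in GENCODE 29 and had 0.12, 0.34 and 0.02 in shVPS35 and 0.45, 0.92 and 0.73 in vector samples. In these 3 the groups did not overlap, and the same held for AC055839.2, AL596223.1, AC243772.2 and AC016831.6. AC055839.2 had 0.18, 0.10 and 0.10 in shVPS35 and 0.59, 0.49 and 0.71 in vector samples. AL596223.1, antisense to the hexokinase-like gene HKDC1, had 0.28, 0.47 and 0.40 in shVPS35 and 1.06, 0.81 and 1.05 in vector samples. AC243772.2 had 0.03, 0.04 and 0.11 in shVPS35 and 0.21, 0.30 and 0.30 in vector samples. For AC243772.2, 73.7% of the 50-base words recur in other genes on the same strand. AC016831.6 had 0.46, 0.51 and 0.19 in shVPS35 and 0.59, 0.84 and 1.15 in vector samples (-0.42 ± 0.15, SE, limma adjusted p = 0.0260), and 35.2% of its words recur in other genes on the same strand, chiefly LINC-PINT. Its call ended with the replicate number as a block (limma adjusted p = 0.0578), under scaling on the other listed genes (limma adjusted p = 0.164), and without shVPS35 sample 3, vector sample 2 or vector sample 3 (limma adjusted p from 0.0595 to 0.0838).

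AC008894.2, antisense to RAB8A, rests on 1 sample. It had 0.08, 0.07 and 0.20 in shVPS35 and 0.18, 0.11 and 4.44 in vector samples, and the difference of -0.79 ± 0.57 (SE) did not pass (limma adjusted p = 0.218). Without vector sample 3 the 2 vector values left lie within the shVPS35 range, and the log2 difference is -0.04. The authors' deposited table gives a log2 fold change of -2.15, which is smaller in size than the -3.76 of the deposited means, a gap of 1.61. Of the 50 members with a ratio, AC008894.2 alone had a gap above 0.3 between the authors' log2 fold change and that of the means. Among the other listed genes 79 of 373 (21.2%) had such a gap.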

How the data were processed

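Per the labels' protocols, RNA was extracted with TRIzol, freed of genomic DNA and sequenced from Illumina libraries. The submitters' processing notes name fastp, HISAT, RSEM and GRCh38.p13, with no versions or roles, and strand handling is not stated there. The authors' deposited table gives an expression signal per gene and sample with no unit named, together with the authors' fold ratio, log2 fold change, p-value and adjusted p-value, per the file headers. Read depth is unknown, so precision was judged from replicates, and no interval was computed.

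Groups came from sample titles. Values were taken to log2(value + 1) and fitted for all 426 listed genes without a filter with limma 3.58.1 (trend, robust, statmod 1.5.0, R 4.3.3), group as the only term, Benjamini-Hochberg adjustment over all 426 genes and a threshold of 0.05. With 3 samples a group, exact permutation cannot go below p = 0.1. The fit was tested before use on simulated data with 226 of 426 genes unchanged, of which 1.33% were called. The listed genes were instead all selected as changed, so that this share does not carry over to them. No filter was applied, since a gene low in 1 group would pass only through the other. The number of genes the authors tested was recovered from their p-values, where 387 of 422 ranks came out whole within 0.01.

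Positions, gene types and transcripts are from GENCODE 29 on GRCh38, with 47 of 51 members matched by identifier, and later symbols from a gene name table. Words of 50 bases were compared exactly with all GENCODE 29 transcripts on both strands. Pseudogenes were aligned locally with Biopython 1.88, and other steps used Python 3.11.15, numpy 2.4.6, pandas 2.3.3 and matplotlib 3.10.9. Promoter windows are RefSeq's, on GRCh38.p14. Genes were named by a rule (in each class the 5 highest by mean level and the 3 with the largest difference in each direction, LNCAROD, TPT1P12 and any listed neighbour), and the other members named were added after their values were seen. The members and lists were chosen with earlier results of these data known. Of 31 well-characterised long noncoding RNAs on a list, only UCA1 was listed, and it fell. Alternatives covered the pseudocount, filters, scaling, the variance model, a replicate block and each sample left out.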

Additional observations from a re-analysis of the deposited data

How the results depend on the processing

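Of 680 member values recomputed under the alternatives, 653 kept their direction and their side of the threshold, 27 lost the call and none reversed. The 43 members called under every alternative run on them leave 7 that lost the call at least once, named above with those alternatives. The median log2 difference was -1.01 over the members and -0.87 over the other listed genes with a pseudocount of 0.1, and -0.12 (members) and -0.085 (others) with 5, by construction of the scale. Filters on low values removed genes and gave -0.62 (members) and -0.63 (others) at 1 or more in 3 samples, and -0.62 (members) and -0.64 (others) at a mean of 1 or more. The mean filter kept 33 members and called all of them, 17 as lower. Of the 280 listed genes it kept, it called 127 as higher and 153 as lower. Median centring gave -0.32 for the others. Scaling on the other listed genes moved the median of all listed genes to -0.21, against -0.34 unscaled. Those genes were selected as changed, and they summed to 3134 to 3193 in shVPS35 and 4425 to 4508 in vector samples. This scaling therefore raised shVPS35 values against vector values for every gene, and takes in part of the group difference itself. It gave -0.24 for the members and -0.20 for the others. It called 45 of the 51 members, beside 186 higher and 190 lower of all 426 listed genes. Leaving out each sample in turn gave -0.50 to -0.31 for the members and -0.34 to -0.31 for the others, the extreme of -0.31 without vector sample 3. These fits called 45 to 49 members, beside 177 to 182 higher and 210 to 219 lower over all listed genes. Same-numbered samples did not deviate together over the listed genes (r = -0.01, -0.04 and 0.03). With 3 samples a group, these values cannot settle whether the numbers mark a pairing. A fit with the replicate number as a block called 49 members, without AC016831.6. Over all listed genes it called 183 as higher and 222 as lower. Depth is unknown, so limits set by counting error could not be given.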

Other observations

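The table also holds 12 noncoding RNA or pseudogene rows, by GENCODE 29 gene type, that the naming rule leaves out. Of these 4 were higher and 8 lower in shVPS35 cells. HOTAIRM1, an antisense RNA of the HOXA cluster, had 8.32, 9.55 and 9.60 in shVPS35 and 20.04, 20.2 and 20.2 in vector samples (log2(value + 1) difference -1.06 with an SE of 0.07, limma adjusted p = 8.5e-06), with groups far apart. KRT7-AS, across the keratin 7 gene, had 5.33, 4.75 and 4.11 in shVPS35 and 10.0, 8.99 and 9.35 in vector samples (-0.87 ± 0.11). GAS1RR, named as a regulatory RNA beside GAS1, had 3.87, 4.55 and 5.70 in shVPS35 and 1.02, 1.29 and 0.76 in vector samples (1.49 ± 0.16). UCA1, first described in bladder cancer, had 0.22, 0.69 and 0.23 in shVPS35 and 1.34, 1.52 and 1.34 in vector samples (-0.81 ± 0.15).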
